A study of Sus scrofa with 75 samples.

Results

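The adhesion G protein-coupled receptors were taken as every gene whose symbol in the deposited pig annotation starts with ADGR, followed by a letter and a number, which gave 25 of the 35798 genes in the expression table. RNA came from heart, kidney, liver, lung and spleen of male pigs 12 months old, in a series titled as a transcriptome of a Chinese local pig. The animals fell into 2 pig groups coded BS and DSE, with 4 animals each. What BS and DSE mean is not given in the labels, nor whether the groups differ in breed, diet or keeping. Each animal gave 1 Illumina library per organ after depletion of ribosomal RNA (40 libraries), and each pig group gave 1 PacBio library of full-length transcripts per organ (10 libraries). Samples of a group coded DT were not analysed here.

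Adhesion receptors carry a long extracellular region that binds partners on neighbouring cells or in the matrix, followed by a domain that cuts the protein during its synthesis and by the membrane-spanning part of a G protein-coupled receptor. When the extracellular part is pulled off or displaced, the short peptide left behind at the cut can act as a tethered agonist and start signalling through G proteins. The family is grouped by its extracellular domains into subfamilies named by a letter. Members are known for roles in blood vessels, myelin, leukocytes, lung surfactant and hearing, from work mostly in mice and humans.

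Short-read levels were deposited as TPM, a level per transcript length that sums to 1000000 in every library, so the depth behind a single value is unknown. The full-length libraries held between 119623 and 456783 reads. All 5 organs expressed their defining markers: summed cardiomyocyte markers were 36236 to 52636 TPM in heart, hepatocyte markers 52222 to 107040 TPM in liver and alveolar type II markers 18390 to 65008 TPM in lung. Some libraries stood apart. The kidneys of BS1 and BS2 had 522 and 617 TPM of the collecting duct gene AQP2, against 172 to 231 TPM in the other 6 kidneys, and 404 and 653 TPM of the proximal tubule gene SLC34A1, against 749 to 1483 TPM in the others. By the tubule gene UMOD the BS4 kidney (5948 TPM) stood with BS1 and BS2 (6244 and 6821 TPM), against 2458.5 to 3072 TPM in the rest. Settings without the BS1 and BS2 kidneys keep the BS4 kidney. The liver of BS4 held 220 TPM of summed cardiomyocyte markers, and FOXI1, a gene of kidney intercalated cells and airway ionocytes, was 1.73 TPM in the lung of DSE2. The other DSE lungs had 0.394 to 0.501 TPM of FOXI1 and the BS lungs at most 0.161 TPM, and in the DSE2 lung the tubule genes UMOD and SLC34A1 were at 0.138 and 0.0204 TPM. Most differences of gene levels within an organ that rest on these libraries are given with and without them. Transcript usage and differences averaged over organs are given with all libraries only. No batch or sequencing date is given in the labels. The libraries measure whole organs, so a larger share of the cells that express a receptor cannot be told apart from more RNA per cell.

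In some organ, 20 of the 25 receptors averaged 1 TPM or more. The other 5 stayed lower: ADGRB3 peaked at 1.11 TPM in the DSE2 lung, ADGRG2 at 0.805 TPM in the DSE4 spleen, ADGRF4 at 0.701 TPM in the DSE4 lung, ADGRF3 at 0.255 TPM in the BS1 liver and ADGRD2 at 0.0286 TPM in the DSE2 lung. Summed over the family, the lung libraries had 532, 621 and 845 TPM (lowest, median and highest of 8 animals), the kidneys 277, 305.5 and 316 TPM, the spleens 227, 297 and 374 TPM, the hearts 172, 198 and 257 TPM and the livers 81.6, 102 and 121 TPM. Every lung library was thus above every library of the other organs, and every liver was below every library of the others. With the libraries scaled by median ratios in place of TPM, the sums came closer and heart moved up to second: the means were 402 in lung, 323 in heart, 253 in kidney, 221 in spleen and 175 in liver, and lungs (321 to 457) overlapped hearts (282 to 357). An average of 1 TPM or more was reached by 16 members in lung and as many in spleen, by 15 in kidney, by 10 in heart and by 9 in liver.

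**Figure D1:**
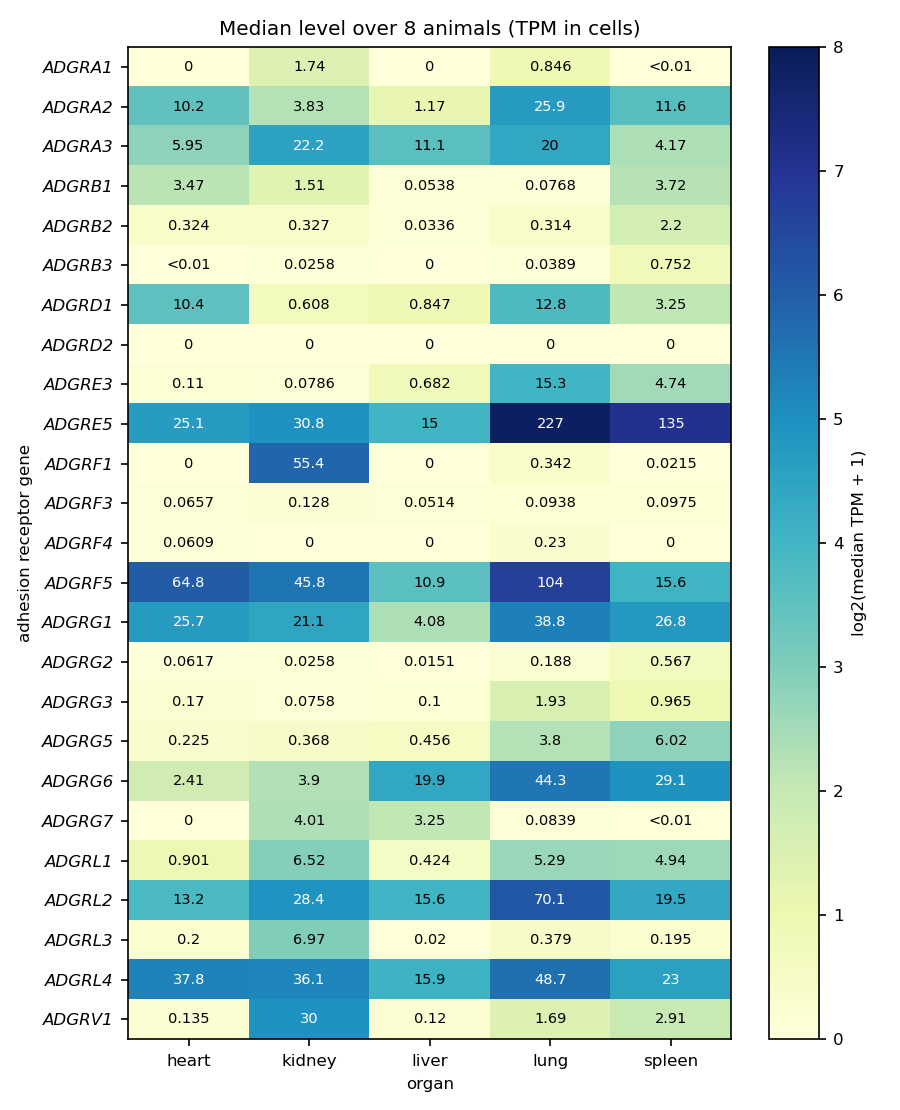
Median level of each of the 25 adhesion receptor genes (rows) in 5 organs (columns) over 8 animals, printed in TPM and coloured by log2(median TPM + 1). ADGRE5 in lung (227 TPM) and spleen (135 TPM) and ADGRF5 in lung (104 TPM) are the darkest cells, while ADGRF1, ADGRV1 and ADGRL3 stand out in the kidney column.

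A few members led the family sum in each organ. ADGRE5 alone gave 36.7% of the mean family sum in lung and 45.2% in spleen. In heart the first 3 were ADGRF5 (30.9%), ADGRL4 (19.2%) and ADGRG1 (12.6%). In kidney they were ADGRF1 (18.7%), ADGRF5 (14.6%) and ADGRL4 (11.4%), and in liver ADGRG6 (19.6%), ADGRE5 (15.8%) and ADGRL2 (15.4%).

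Organs were compared with limma on log2(TPM + 1), a scale that understates the change of low genes, over the 16905 genes whose mean in a pig group and organ reached 1 TPM. A gene was called enriched in an organ at 4-fold or more over each of the other 4 organs with an adjusted p (Benjamini-Hochberg) under 0.05, and depleted on the mirror rule. By this rule 3 members were enriched in kidney (ADGRF1, ADGRV1 and ADGRL3) and 1 was depleted in liver (ADGRG1). That is 4 of 20 measured members, against 11.7% of all genes tested that were called in either direction. Kidney enrichment was called for 2.50% of all genes and liver depletion for 0.728%. When each member's organs were ranked by mean level, 48 of 80 steps between neighbours in rank passed at an adjusted p under 0.05, beside 57.2% over all genes. Scaling the libraries by median ratios turned the sign of 17 of the 80 steps, 8 of them among the 48 that passed.

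The kidney members came from 3 subfamilies. ADGRF1 (GPR110), the receptor of a lipid amide of docosahexaenoic acid in mouse brain, had 59.2, 67.1, 44.0 and 51.7 TPM in the BS kidneys and 51.2, 63.2, 60.8 and 51.7 TPM in the DSE kidneys. It was listed at 0 TPM in every heart and reached at most 0.0174 TPM in liver. Kidney and lung, the next organ by mean, differed by 5.12 ± 0.23 on the log2 scale (SE; limma, adjusted p = 1.5e-19 for the weakest of the 4 contrasts). Every kidney was above every other library, and the pig groups overlapped.

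ADGRV1, the very large receptor that links the stereocilia of developing hair cells and is mutated in a form of Usher syndrome in humans, had 3.54, 6.54, 36.1 and 25.9 TPM in the BS kidneys and 31.1, 33.8, 28.8 and 37.6 TPM in the DSE kidneys. Spleen came next with 1.51, 2.91 and 6.13 TPM (lowest, median and highest), then lung with 0.601, 1.69 and 2.46 TPM. In heart and liver no library passed 0.283 TPM. The kidney level was 2.46 ± 0.24 above spleen on the log2 scale (SE; limma, adjusted p = 1.2e-10), and the BS1 kidney lay within the range of the spleens.

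ADGRL3, a latrophilin that binds teneurins and FLRT proteins at synapses, had 1.62, 2.72, 9.52 and 6.77 TPM in the BS kidneys and 7.16, 9.71, 8.48 and 5.47 TPM in the DSE kidneys, against at most 0.766 TPM in any library of the other organs. The difference from lung was 2.26 ± 0.16 (SE; limma, adjusted p = 7.7e-14). For ADGRV1 and for ADGRL3 the BS1 and BS2 kidneys, which held more AQP2 and less SLC34A1, were the lowest of the 8, and the part of tubule makeup in this was not tested. Without those libraries the 3 kidney calls held, with differences of 5.02 for ADGRF1, 3.07 for ADGRV1 and 2.64 for ADGRL3.

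**Figure D2:**
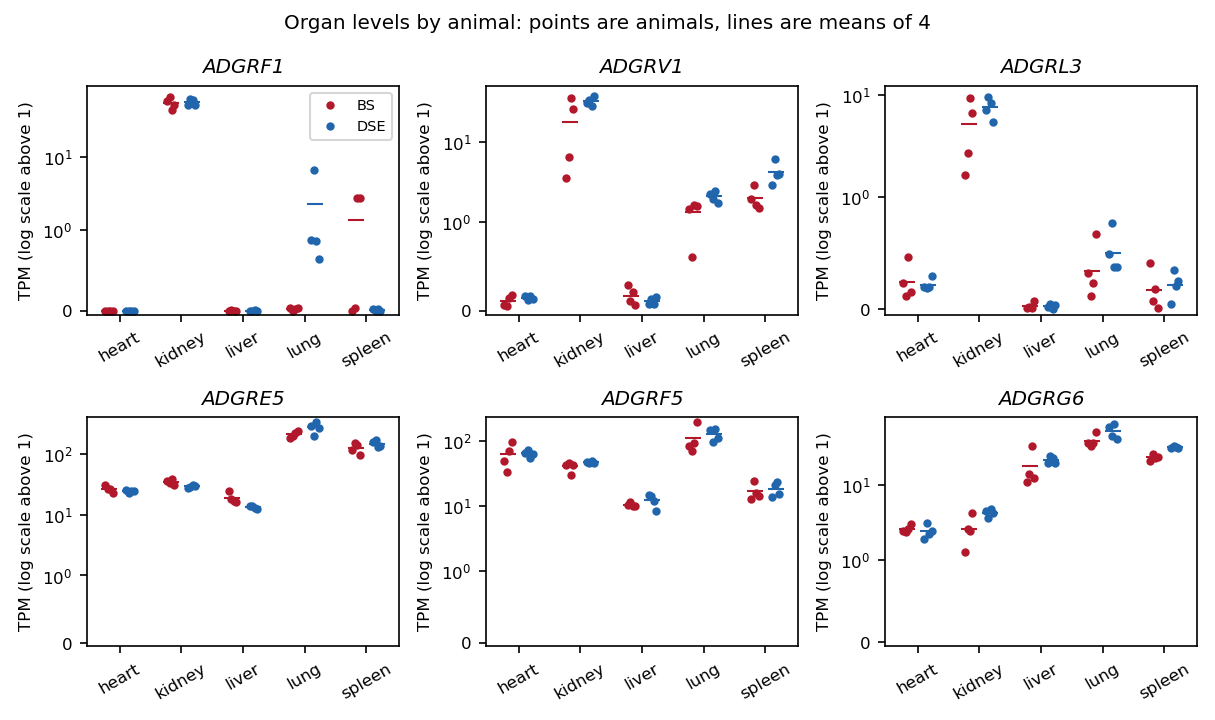
Level in TPM (vertical axis, logarithmic above 1 and linear below) of 6 adhesion receptors in 5 organs, with 1 point per animal, BS in red to the left of DSE in blue, and lines at the means of 4 animals. ADGRF1, ADGRV1 and ADGRL3 are highest in kidney, ADGRE5, ADGRF5 and ADGRG6 in lung.

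Lung was the organ with the highest mean for 10 of the 20 measured members, kidney for 7, spleen for 2 and heart for 1. With no minimum fold, 15 members were above all other organs in 1 organ: 9 in lung (19.6% of all genes), 4 in kidney (15.8%) and 2 in spleen (12.9%). In the other direction, 7 members were below all other organs in liver (24.9%) and 1, ADGRA3, in spleen (2.15%), a call that was lost without DSE1 or DSE3 (highest adjusted p 0.11). In TPM a gene's value falls where other genes take much of the library. Scaling the libraries by median ratios instead moved the median of all genes by 1.15 (log2) towards heart in the contrast of heart with lung, by 1.24 towards liver in that of liver with lung and by 0.413 towards kidney in that of kidney with lung. On that scale lung was highest for 4 members (ADGRE3, ADGRE5, ADGRG3 and ADGRL2), heart for 6, kidney for 5, liver for 3 and spleen for 2.

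Of the leukocyte receptors, ADGRE5 (CD97), which binds the complement regulator CD55 on other cells, was the most abundant adhesion receptor of lung and spleen. It had 184, 199, 216 and 237 TPM in the BS lungs and 289, 198, 334 and 265 TPM in the DSE lungs, 96.8, 135 and 168 TPM (lowest, median and highest) in spleen, 27.5, 30.8 and 38.4 TPM in kidney, 22.9, 25.1 and 30.8 TPM in heart and 12.2, 15.02 and 24.5 TPM in liver. Each step in this order passed the test, from lung over spleen (log2 0.81 ± 0.096, SE, limma, adjusted p = 4.0e-09) to heart over liver (0.66 ± 0.096). With median-ratio scaling kidney over heart turned (-0.58), and the means of liver and kidney were close at 27.4 and 26.9. The lung and spleen libraries did not overlap. The annotation places DDX39A on the opposite strand over part of ADGRE5, and whether reads were counted by strand is not stated.

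ADGRE3, a relative of ADGRE5 on human myeloid cells, had 4.73, 15.3 and 31.5 TPM in lung, 1.69, 4.74 and 7.89 TPM in spleen and 0.456, 0.682 and 1.21 TPM in liver (lowest, median and highest), and stayed under 0.43 TPM in heart and kidney. Lung was 1.61 ± 0.17 above spleen (SE; limma, adjusted p = 5.8e-10). Summed macrophage markers were 4185 to 7058 TPM in lung and 11331 to 19746 TPM in spleen, an order opposite to that of both E members, while summed neutrophil markers, of which 5 of 8 were found, were 670 to 3466 TPM in lung and 19.3 to 856 TPM in spleen. The part of either cell type in these levels was not tested.

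Subfamily F and L members known from vessels and airways were broad. ADGRF5 (GPR116), which limits the surfactant pool in mouse alveolar type II cells and is also made by endothelium, had 85.2, 71.3, 92.9 and 197 TPM in the BS lungs and 147, 95.9, 154 and 111 TPM in the DSE lungs. The other organs followed with 32.8, 64.8 and 97.2 TPM (lowest, median and highest) in heart, 30.1, 45.8 and 49.3 TPM in kidney, 12.8, 15.6 and 24.6 TPM in spleen and 8.35, 10.9 and 14.6 TPM in liver. Lung and heart overlapped, with the BS4 heart above 4 of the 8 lungs. In TPM the lung mean was 0.88 ± 0.18 above that of heart (SE; limma, adjusted p = 1.6e-04), but with median-ratio scaling it was 0.45 below.

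ADGRL4 (ELTD1), an endothelial receptor active in vessel growth, was spread over all 5 organs. It had 33.7, 48.7 and 60.8 TPM in lung (lowest, median and highest), 22.5, 37.8 and 53.9 TPM in heart, 23.8, 36.1 and 44.9 TPM in kidney, 11.3, 23.0 and 40.1 TPM in spleen and 9.87, 15.9 and 21.6 TPM in liver. Lung and heart (adjusted p = 0.052) and heart and kidney (0.21) did not pass the test, and the steps from kidney to spleen and from spleen to liver did. With median-ratio scaling heart was first, 1.05 above lung, and liver was above spleen by 0.63. Summed endothelial markers, all 8 at 1 TPM or more in each organ, had medians of 1559 TPM in lung, 370 TPM in heart, 194 TPM in kidney, 250 TPM in spleen and 152 TPM in liver. The lung's endothelial sum was thus several times that of any other organ, while its ADGRL4 level was not. The part of endothelial cells in these levels was not tested.

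ADGRL2, the broadest latrophilin, had 56.3, 70.1 and 88.5 TPM in lung (lowest, median and highest), above every library of the other organs. Kidney followed with 18.2, 28.4 and 29.3 TPM, spleen with 14.0, 19.5 and 25.4 TPM, liver with 11.7, 15.6 and 19.0 TPM and heart with 11.5, 13.2 and 17.8 TPM. Its excess in lung over kidney was 1.38 ± 0.11 (SE; limma, adjusted p = 1.5e-12). ADGRL1, the other broad latrophilin, had 4.53, 6.52 and 9.74 TPM in kidney, 4.25, 5.29 and 6.53 TPM in lung and 2.99, 4.94 and 8.80 TPM in spleen, which did not pass against their neighbours, and 0.601, 0.901 and 1.84 TPM in heart and 0.292, 0.424 and 0.527 TPM in liver. Among the latrophilins, ADGRL1 was thus low in heart and liver, and ADGRL3 in every organ but kidney. In heart and liver ADGRL2 and ADGRL4 were still above 9 TPM in every library.

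In subfamily G, 3 members lie side by side on the plus strand of chromosome 6 (build susScr11): ADGRG5 at 19463024 to 19488623, ADGRG1 at 19527648 to 19570893 and ADGRG3 at 19574530 to 19599080. Their patterns differed. ADGRG1 (GPR56), a collagen III receptor of the developing brain that cytotoxic lymphocytes also carry in humans, had 29.2, 38.8 and 51.6 TPM in lung (lowest, median and highest), 14.2, 26.8 and 38.1 TPM in spleen, 13.5, 25.7 and 39.99 TPM in heart and 14.8, 21.1 and 56.01 TPM in kidney. Liver stood out with 7.998, 6.22, 4.90 and 6.03 TPM in the BS livers and 2.86, 3.25, 3.26 and 2.81 TPM in the DSE livers. These were below every library of the other organs, and the gap to heart was -2.22 ± 0.16 (SE; limma, adjusted p = 3.2e-14). With median-ratio scaling liver was still the lowest organ, but by less than 4-fold (-1.20), so that 3 members in place of 4 were called.

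ADGRG5, a receptor that raises cyclic AMP, was highest in spleen with 5.21, 6.02 and 8.63 TPM (lowest, median and highest), against 1.20, 3.80 and 5.12 TPM in lung and at most 0.849 TPM in any heart, kidney or liver (spleen over lung 0.78 ± 0.13, SE, limma, adjusted p = 6.2e-06). ADGRG3 (GPR97), a receptor of human neutrophils, had 0.682, 1.93 and 4.24 TPM in lung and 0.204, 0.965 and 2.84 TPM in spleen. Its lung excess over spleen, 0.48 ± 0.16 (adjusted p = 0.016), no longer passed without BS4, DSE3 or DSE4, with a highest adjusted p of 0.13.

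ADGRG6 (GPR126), which is needed for Schwann cells to myelinate axons, was the leading member of liver. It had 34.1, 44.3 and 67.2 TPM in lung, 21.1, 29.1 and 34.3 TPM in spleen and 11.2, 19.9 and 34.4 TPM in liver (lowest, median and highest), and at most 4.81 TPM in kidney and 3.08 TPM in heart. The step from liver to kidney was 2.22 ± 0.16 (SE; limma, adjusted p = 4.7e-15), while kidney and heart did not pass (0.087). Among the Schwann cell markers, 5 of 6 were found and SOX10, which defines the lineage, was under 0.1 TPM on average in liver.

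ADGRG7 (GPR128), known from mouse intestine, had 0.0988, 4.01 and 16.9 TPM in kidney and 0.605, 3.25 and 5.11 TPM in liver, and at most 0.234 TPM in any other library. Kidney and liver did not pass against each other (adjusted p = 0.65), and both split by pig group.

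Of the A, B and D members, ADGRA2 (GPR124), which works with RECK as a coreceptor of WNT7 in brain vessels, had 16.1, 25.9 and 36.6 TPM in lung (lowest, median and highest), above spleen by 1.03 ± 0.14 (SE; limma, adjusted p = 9.3e-08), but 0.11 below heart with median-ratio scaling. Spleen, with 7.96, 11.6 and 15.8 TPM, and heart, with 7.74, 10.2 and 15.7 TPM, did not pass against each other, and kidney had 2.36, 3.83 and 6.19 TPM and liver 0.937, 1.17 and 1.66 TPM. ADGRA3 (GPR125), an orphan receptor, had 15.8, 22.2 and 30.9 TPM in kidney and 13.6, 20.05 and 26.8 TPM in lung, which did not pass, 7.14, 11.1 and 17.1 TPM in liver, 4.67, 5.95 and 7.83 TPM in heart and 1.54, 4.17 and 6.41 TPM in spleen. ADGRA1 had 0.561, 1.74 and 4.06 TPM in kidney and 0.383, 0.846 and 1.67 TPM in lung, and at most 0.0659 TPM elsewhere.

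ADGRB1 (BAI1), a receptor for phosphatidylserine on dying cells, had 2.83, 3.72 and 7.92 TPM in spleen, 0.633, 3.47 and 12.7 TPM in heart, 0.965, 1.51 and 5.06 TPM in kidney and at most 0.381 TPM in lung and liver, and its heart and spleen levels did not pass against each other (adjusted p = 0.85). ADGRB2 was spleen-leaning, with 1.19, 2.199 and 3.45 TPM there and at most 0.576 TPM in any other library (spleen over kidney 1.21 ± 0.11, SE, limma, adjusted p = 1.7e-11). ADGRD1 (GPR133), which raises cyclic AMP and binds PTK7, had 8.02, 12.8 and 21.3 TPM in lung and 5.86, 10.4 and 12.0 TPM in heart, 1.35, 3.25 and 4.73 TPM in spleen and at most 1.24 TPM in kidney and liver. The lung excess of ADGRD1 over heart, 0.44 ± 0.17 (adjusted p = 0.034), no longer passed without any of BS2, BS4, DSE3 and DSE4 (highest adjusted p 0.11), and its sign turned with median-ratio scaling (-0.80).

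Full-length reads gave a second view of the organs for the 8 members with long-read transcripts in the annotation. Reads were summed per gene over 4110 genes and compared by quasi-likelihood in edgeR, with 1 BS and 1 DSE library per organ standing as the replicates. ADGRF1 had 68 reads in the BS kidney and 35 in the DSE kidney, 1 read in the BS lung and none in the other 7 libraries, and was called enriched in kidney (log2 6.22 over lung, adjusted p = 5.8e-08; 3.02% of all genes). ADGRD1 was called enriched in heart, with 48 and 34 reads in the BS and DSE hearts, against 5 and 12 in the lungs, 1 and 4 in the spleens, 1 and 0 in the livers and none in the kidneys (log2 2.28 over lung, adjusted p = 0.0017; 4.23% of all genes). ADGRG6 was called depleted in kidney, where it had 6 and 3 reads. These are 3 of 8 members, against 17.0% of all genes tested, and each depended on the settings. With DESeq2 none of the 3 was called and ADGRG1 in heart was. Without a term for pig group ADGRF1 in kidney was the one member called, and ADGRG6 in kidney was not called without the filter on low counts or with reads of the gene's own transcripts alone.

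Heart and lung came in a different order in the full-length reads for part of the family. ADGRG1 had 215 and 208 reads in the BS and DSE hearts, against 78 and 43 in the lungs. ADGRF5 had 145 and 87 reads in the hearts and 32 and 41 in the lungs, and ADGRL4 had 291 and 247 reads in the hearts and 106 and 99 in the lungs. Heart was above every other organ in these reads for each of the 3 with no minimum fold, which was the case for 6.47% of all genes (ADGRG1 1.92, adjusted p = 6.1e-05; ADGRF5 1.59, 0.0035; ADGRL4 1.39, 0.0058; edgeR). In TPM the contrast of heart with lung was -0.62 for ADGRG1, -0.88 for ADGRF5 and -0.27 for ADGRL4.

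In the contrast of heart with lung, ADGRD1, ADGRE5, ADGRF5, ADGRG1 and ADGRG6 passed in both kinds of reads. Of these, ADGRD1, ADGRF5 and ADGRG1 had opposite signs. Over all pairs of organs, 36 contrasts of members passed in both, and no others had opposite signs. Over all genes, 10.2% of those that passed in both kinds of reads for heart and lung had opposite signs. With median-ratio scaling the short reads gave 0.80 for ADGRD1, 0.45 for ADGRF5, 0.69 for ADGRG1 and 1.05 for ADGRL4, the sign of the full-length reads. ADGRE5 and ADGRG6 were lower in heart than in lung on each of the 3 scales. ADGRL2 and ADGRF1 had negative values on each as well, but did not pass in the full-length reads (ADGRL2 -0.73, edgeR, adjusted p = 0.26; ADGRF1 -2.11, 0.45, from 1 read in lung and none in heart).

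**Figure D3:**
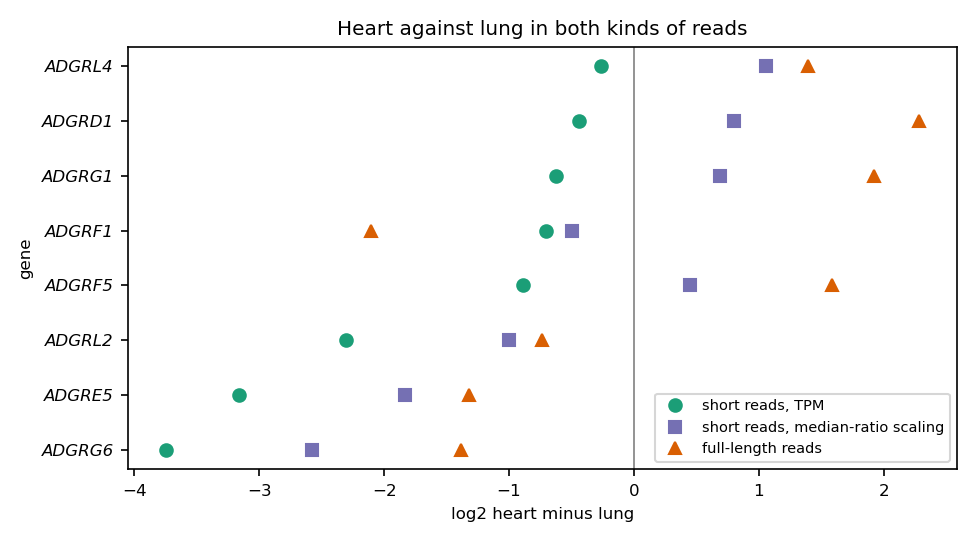
Difference of heart minus lung on the log2 scale (horizontal axis) for the 8 adhesion receptors with full-length reads (rows): short reads in TPM (circles), short reads with median-ratio scaling (squares) and full-length reads (triangles). ADGRL4, ADGRD1, ADGRG1 and ADGRF5 lie left of 0 in TPM and right of 0 on the other scales, and the other 4 lie left of 0 on all 3.

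ADGRG1 changed its transcripts between organs. Its 22 transcripts start in 7 regions when 5′ ends no more than 1000 nt apart are joined, all on chromosome 6 (susScr11, plus strand). In kidney the first region, at 19527648 to 19527866, took 27.2, 53.0 and 66.6% of the gene's TPM (lowest, median and highest of 8 animals), against at most 0.668% in heart, 14.5% in lung and 8.96% in spleen. In heart the third region, at 19536157 to 19536808, took 41.9, 60.4 and 75.0%, and in lung the last, at 19555954 to 19556341, took 32.4, 55.4 and 70.6%. Kidney did not overlap the other organs in its use of the first region, and no lung overlapped heart or kidney in its use of the last. Spleen drew on several, with means of 33.7% from the third, 24.3% from the fifth and 35.7% from the last.

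In the test of transcript usage, 15 of 213 comparisons of receptor transcripts between organs were called, on 3 genes (ADGRG1, ADGRG6 and ADGRE5), against 5.43% of all such comparisons over all genes. A call needed a shift of at least 20 percentage points and an adjusted p under 0.05 (limma on the log2 ratio to the gene's other transcripts), in genes that averaged 5 TPM or more in both organs, which leaves out ADGRG1 in liver. The kidney transcript of ADGRG1, ENSSSCT00000040726, took 50.5 ± 11.7% in kidney and was listed at 0 in every heart (SD, n = 8; adjusted p = 3.4e-15). The lung transcript, PB.7790.23, took 52.4 ± 11.6% in lung and 1.37 ± 2.74% in kidney (adjusted p = 6.9e-09) and 6.54 ± 7.003% in heart. It covers 33.7% of the gene's span.

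Full-length reads of ADGRG1 matched the short reads only in part. Of the gene's own reads in heart, 207 of 215 in BS and 197 of 208 in DSE started in the third region, the leading one in TPM too, but the fifth region had no read there and took 39.4% of TPM in BS hearts and 12.96% in DSE hearts. In lung, 31 of 41 DSE reads started in the last region, while in BS the third led with 39 of 75 reads over the last with 34, against 25.1% and 48.5% of TPM. In kidney, 40 of 49 BS reads and 4 of 5 DSE reads started in the third region, which took 17.5% of TPM. The transcripts of the first region come from the reference annotation and have no row in the full-length table, so the first region could hold no full-length read. In the fifth region 2 of 4 transcripts come from long reads, and the others likewise have no row there.

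**Figure D4:**
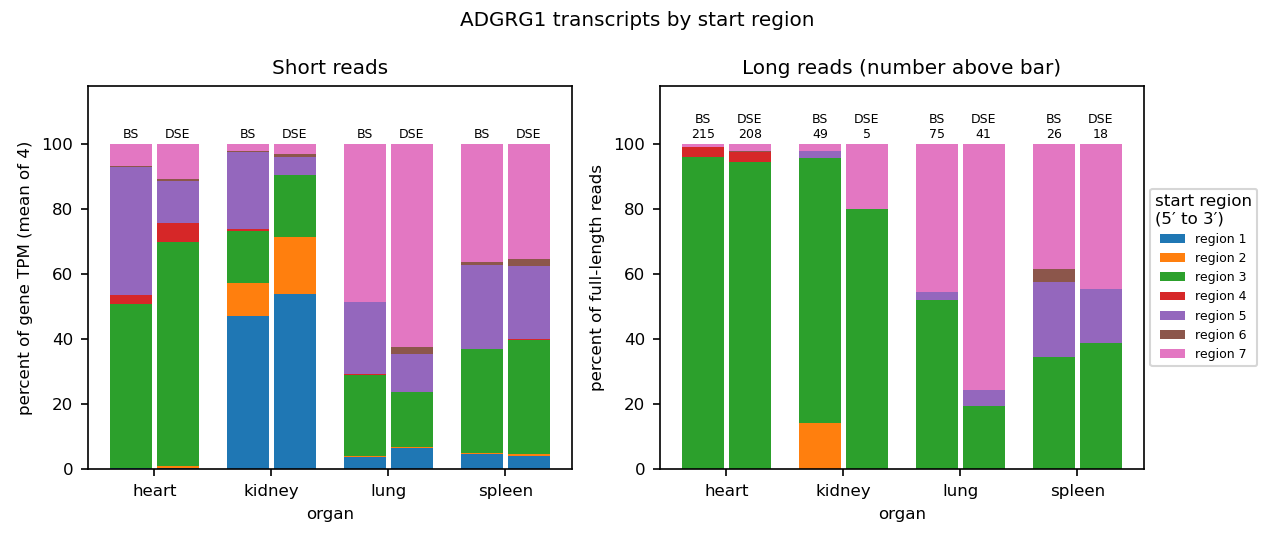
Share of ADGRG1 by the region in which its transcripts start, stacked to 100%, for BS (left bar) and DSE (right bar) in 4 organs: percent of the gene's TPM (mean of 4 animals, left) and percent of its full-length reads, with the number of reads above each bar (right). In the short reads region 1 takes 50.6% of kidney, region 3 takes 59.8% of heart and region 7 takes 55.4% of lung (means of 8 animals). Region 1 has no transcript in the full-length table, and region 5 has 2 of its 4.

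ADGRG6 and ADGRE5 shifted less. ADGRG6 transcript ENSSSCT00000004574 took 4.99 ± 5.57% in liver, 39.2 ± 10.4% in spleen and 29.9 ± 12.9% in lung (SD, n = 8; liver against spleen adjusted p = 2.3e-06). ADGRE5 transcript PB.2849.38 took 59.8 ± 7.47% in heart and 34.6 ± 17.3% in lung (adjusted p = 0.044), a call that was lost without BS2 or without any DSE animal (highest adjusted p 0.11). In all 8 genes with full-length reads, the transcript that led those reads held a smaller share of TPM than of reads. The share of TPM is over all transcripts of a gene, that of reads over its long-read transcripts alone. The leader was also picked by its reads, so a smaller share of TPM was in part built in. The leading transcript's share of TPM was 71.4% in ADGRD1, 25.6% in ADGRF5, 17.1% in ADGRF1 and 15.7% in ADGRL2. PB.7790.5 had 489 of 649 reads of ADGRG1 and 8.14% of its TPM, and PB.183.1 had 99 of 177 reads of ADGRG6 and 6.70% of its TPM. PB.2849.26 had 130 of 265 reads of ADGRE5 and 1.005% of its TPM, and PB.9265.1 had 1016 of 1029 reads of ADGRL4 and 16.1% of its TPM. Most of the TPM of ADGRL4 lay on ENSSSCT00000041037, with means of 70.0 to 82.6% by organ, a reference transcript with no row in the full-length table.

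BS and DSE were compared within each organ on the log2(TPM + 1) scale, and a difference was called at 2-fold or more with an adjusted p under 0.05. Of the 68 comparisons that passed the filter on low values, 7 were called on 6 members, against 5.31% of the same comparisons over all genes: ADGRB1 and ADGRG1 rose in BS hearts, and ADGRG7 fell in BS kidneys and livers, ADGRV1 in BS kidneys and ADGRE3 and ADGRF1 in BS lungs. Over all genes, such differences made up 10.3% of lung genes, 5.24% of kidney genes, 3.99% of liver genes, 3.49% of spleen genes, where no member was called, and 2.60% of heart genes. In the direction of the members' calls the shares were 2.17% higher in BS hearts and 1.70%, 0.971% and 7.50% lower in BS kidneys, livers and lungs. The median over members tested was -0.32 in lung, beside -0.21 over all genes, and 0.12 in heart, beside 0.031.

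With no minimum fold, 3 members were higher in BS and 1 lower of 11 tested in heart (22.2% and 11.1% of all genes), 3 higher and 5 lower of 15 in kidney (23.9% and 21.5%), 2 higher and 2 lower of 9 in liver (23.5% and 12.9%), 1 higher and 5 lower of 16 in lung (18.5% and 37.0%) and 2 higher and 2 lower of 17 in spleen (14.5% and 21.3%). All BS animals were above all DSE animals for 3 members in heart (23.1% of all genes), 2 in liver (19.2%), 1 in kidney (19.8%), 1 in spleen (12.0%) and none in lung (14.2%). All BS animals were below all DSE animals for 4 members in lung (25.7%), 3 in spleen (17.0%), 1 in heart (12.3%), 1 in kidney (17.6%) and 1 in liver (11.5%).

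ADGRG7 showed the clearest split. The BS kidneys had 0.290, 0.0988, 3.17 and 0.132 TPM and the DSE kidneys 16.9, 4.86, 6.69 and 5.07 TPM. The BS livers had 1.11, 0.662, 2.45 and 0.605 TPM and the DSE livers 4.82, 4.05, 5.11 and 4.24 TPM. In both organs every BS animal was below every DSE animal, and BS3 was the highest of the BS animals. The difference was -2.38 ± 0.28 in kidney (SE, limma, adjusted p = 6.7e-08) and -1.40 ± 0.28 in liver (adjusted p = 2.2e-04). Both held without each animal in turn (highest adjusted p 0.0027), and the kidney call held without the BS1 and BS2 kidneys.

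In TPM, ADGRG1 was higher in BS in several organs. In heart it had 33.5, 33.6, 35.2 and 39.99 TPM in BS and 17.7, 16.2, 13.5 and 18.0 TPM in DSE, without overlap (1.08 ± 0.22, SE, limma, adjusted p = 3.4e-04, and 0.997 without DSE3). The livers did not overlap either (0.83 ± 0.22, adjusted p = 0.0037). In kidney it had 56.0, 47.4, 17.3 and 37.4 TPM in BS and 15.3, 14.8, 17.6 and 24.5 TPM in DSE, with BS3 among the DSE values (0.997 ± 0.22, adjusted p = 6.1e-04), and this no longer passed without the BS1 and BS2 kidneys (0.50, adjusted p = 0.13). Spleen had 34.5, 38.1, 26.8 and 26.8 TPM in BS and 23.0, 26.8, 14.2 and 18.1 TPM in DSE and passed at 0.62 ± 0.22 (0.030), which was lost without BS1, BS2, DSE3 or DSE4 (highest adjusted p 0.16), and lung did not pass (0.21 ± 0.22, 0.42). In all 5 organs the BS mean was the higher one. NKG7, a granule gene of cytotoxic lymphocytes, was also higher in every BS library than in any DSE library of heart (4.03 to 5.73 TPM in BS and 1.57 to 3.58 TPM in DSE), liver (10.2 to 28.9 TPM in BS and 7.25 to 8.87 TPM in DSE) and lung (89.8 to 112 TPM in BS and 38.7 to 61.4 TPM in DSE). The sum of the 8 T and NK cell markers overlapped between the pig groups in heart (15.5 to 22.96 TPM in BS and 8.58 to 23.1 TPM in DSE) and lung, and did not in liver (53.1 to 98.6 TPM in BS and 42.3 to 50.5 TPM in DSE). Of these 8 genes, 1 was higher in BS and none lower in heart, 2 higher and none lower in liver, and 1 higher and 2 lower in lung. In kidney 1 was higher and 1 lower, and in spleen 2 were higher and 1 lower. The part of these cells in the ADGRG1 levels was not tested. Averaged over organs, the difference of ADGRG1 was 0.75 ± 0.11 (adjusted p = 5.0e-04), below 2-fold. The full-length reads of ADGRG1 had the opposite order in heart. Per 1000000 reads, the BS heart had 583 and the DSE heart 927. In kidney, liver, lung and spleen they were higher in BS, for example 381 in the BS lung and 206 in the DSE lung. With 1 library per pig group and organ, these differences were not tested.

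ADGRL4 was lower in BS in TPM in all 5 organs, each time below 2-fold. The BS hearts had 30.3, 22.5, 32.1 and 34.3 TPM and the DSE hearts 52.1, 53.9, 49.8 and 41.3 TPM. The BS lungs had 36.6, 33.7, 35.7 and 46.6 TPM and the DSE lungs 58.8, 53.1, 60.8 and 50.8 TPM. The BS spleens had 15.9, 22.1, 17.8 and 11.3 TPM and the DSE spleens 26.0, 34.2, 40.1 and 23.9 TPM. None of these 3 organs overlapped between the pig groups, while kidney and liver did. The BS kidneys had 23.8, 36.7, 23.8 and 31.6 TPM and the DSE kidneys 38.4, 44.9, 35.5 and 39.6 TPM. The BS livers had 17.5, 12.3, 11.7 and 9.87 TPM and the DSE livers 21.6, 21.1, 17.5 and 14.4 TPM. The differences were -0.72 in heart, -0.55 in lung and -0.86 in spleen (SE 0.18 each; limma, adjusted p = 0.0027, 0.011 and 5.7e-04), and that in lung did not pass with median-ratio scaling (-0.29, 0.079), which moved the median of all lung genes by 0.244 towards BS. In kidney (-0.46, adjusted p = 0.039) and liver (-0.52, 0.025) it passed with all animals, but not without any of 5 animals in kidney or 4 in liver (highest adjusted p 0.13 and 0.10), nor in kidney without the BS1 and BS2 kidneys (-0.51, 0.095) or in liver without the BS4 liver (-0.41, 0.10).

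Over organs, ADGRL4 fell by 0.62 ± 0.07 on the log2 scale in BS (SE; limma on animal means, adjusted p = 1.4e-04), and the differences between organs did not pass the interaction test (adjusted p = 0.70). Summed endothelial markers had means of 485 TPM in BS and 346 TPM in DSE hearts, 1679 TPM in BS and 1318 TPM in DSE lungs and 312 TPM in BS and 239 TPM in DSE spleens. The sums overlapped between the pig groups in lung (1548 to 1847 TPM in BS and 1055 to 1570 TPM in DSE) and spleen, and did not in heart. Of the 8 endothelial genes, 2 were higher in BS and none lower in heart, 2 higher and 1 lower in lung, and 1 higher and none lower in spleen. The part of endothelial cells in the ADGRL4 difference was not tested. Per 1000000 full-length reads, ADGRL4 was lower in BS in heart (789 in BS and 1101 in DSE) and spleen (251 and 270). It was higher in BS in kidney (243 and 184), liver (202 and 97.2) and lung (518 and 474), from 1 library per pig group and organ.

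**Figure D5:**
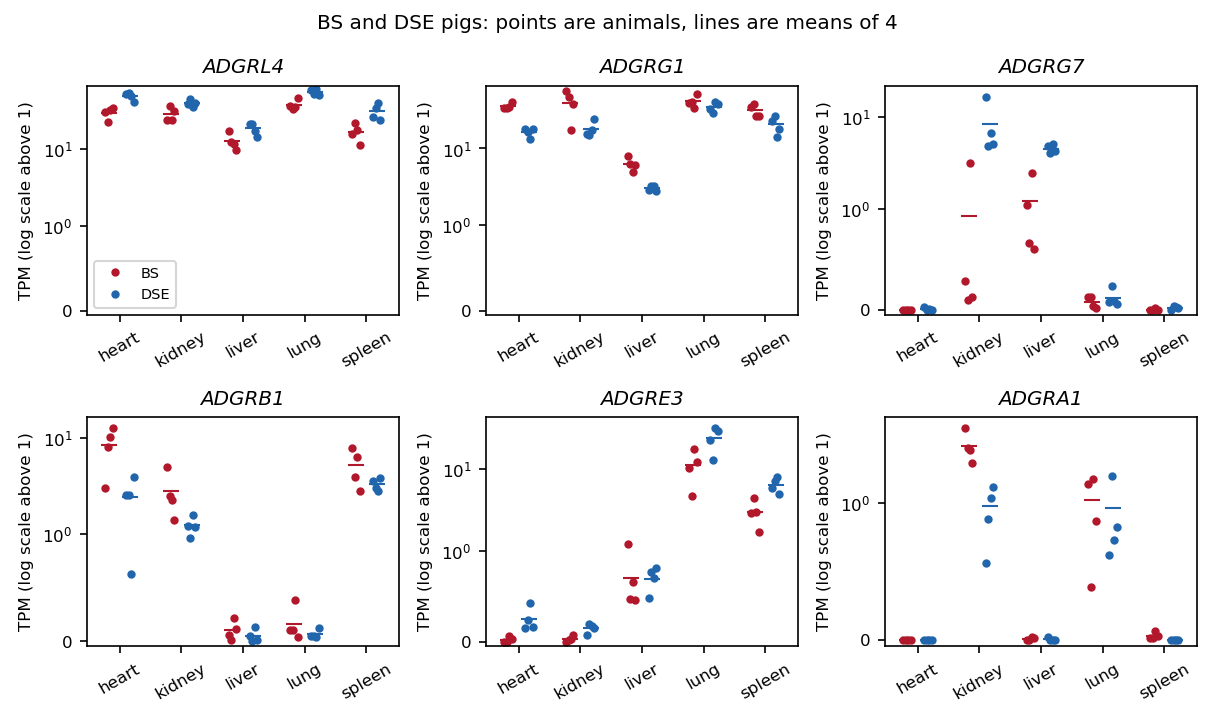
Level in TPM (vertical axis, logarithmic above 1 and linear below) of 6 adhesion receptors in 5 organs, with 1 point per animal, BS in red to the left of DSE in blue, and lines at the means of 4 animals. BS points lie below DSE points for ADGRL4 in heart, lung and spleen and for ADGRG7 in kidney and liver, and above them for ADGRG1 in heart and liver and for ADGRA1 in kidney.

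ADGRB1 had 3.03, 8.04, 10.2 and 12.7 TPM in the BS hearts and 2.58, 2.54, 0.633 and 3.91 TPM in the DSE hearts. BS1 lay below the highest DSE heart, so the groups overlapped, and the difference was 1.45 ± 0.29 (SE, limma, adjusted p = 2.2e-04). In kidney, with 5.06, 2.48, 2.29 and 1.42 TPM in BS and 1.23, 0.965, 1.59 and 1.20 TPM in DSE, a difference of 0.69 ± 0.29 passed at an adjusted p of 0.049, but not without any of 6 animals (highest 0.15) or without the BS1 and BS2 kidneys (0.34, adjusted p = 0.50). An unnamed gene lies on the opposite strand over part of ADGRB1.

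ADGRE3 had 10.4, 4.73, 17.7 and 12.1 TPM in the BS lungs and 22.5, 12.9, 31.5 and 29.4 TPM in the DSE lungs, with BS3 above DSE2 (-1.08 ± 0.24, SE, limma, adjusted p = 3.3e-04). The difference was below 2-fold without BS2 (-0.76), DSE3 (-0.93) or DSE4 (-0.96) and with median-ratio scaling (-0.81), and passed the adjusted p in each. In spleen the groups did not overlap, at 2.94, 4.45, 3.03 and 1.69 TPM in BS and 5.90, 7.05, 7.89 and 5.02 TPM in DSE (-0.92 ± 0.24, adjusted p = 0.0034). Summed macrophage markers overlapped in lung (4430 to 6039 TPM in BS and 4185 to 7058 TPM in DSE, with 1 of 8 genes lower in BS and none higher). CD163 was 172 to 274 TPM in the BS lungs and 267 to 597 TPM in the DSE lungs. Summed neutrophil markers were 940 to 3466 TPM in BS and 670 to 1080 TPM in DSE lungs. The part of these cells in the ADGRE3 levels was not tested.

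ADGRF1 was also found in the lungs of 1 pig group and spleens of the other. It had 0.0329, 0, 0.0178 and 0.0404 TPM in the BS lungs and 0.880, 6.72, 0.864 and 0.644 TPM in the DSE lungs (-1.34 ± 0.33, SE, limma, adjusted p = 0.0012). FOXI1 split the lungs the same way, with every BS lung below every DSE lung, and its part in this difference was not tested. Without the DSE2 lung, the library with the highest FOXI1, the lung means no longer reached 1 TPM and the gene was not tested there. In spleen only BS3 and BS4 rose above 0.034 TPM, at 2.78 and 2.72 TPM (0.95 ± 0.33, adjusted p = 0.026), which was lost without DSE1, DSE3 or DSE4 (highest adjusted p 0.064).

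The ADGRV1 difference in kidney, -1.31 ± 0.34 (SE, limma, adjusted p = 0.0025), rested on the 2 kidneys with more AQP2: BS1 and BS2 had 3.54 and 6.54 TPM, while BS3 and BS4, at 36.1 and 25.9 TPM, lay among or near the DSE values of 28.8 to 37.6 TPM. Without BS1 alone it was -0.78 (adjusted p = 0.043), and without both kidneys -0.091 (0.77). ADGRL3 in kidney likewise passed with all libraries (-0.69 ± 0.23, adjusted p = 0.017) and was 0.080 without them (0.77). ADGRG6 had 1.26, 2.62, 2.41 and 4.24 TPM in the BS kidneys and 4.53, 3.5996, 4.81 and 4.20 TPM in the DSE kidneys, a difference of -0.60 with all libraries (adjusted p = 0.026) and -0.32 without those 2 (0.39). Each of the 2 genes was also lost on leaving out single animals (highest adjusted p 0.20 and 0.17).

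ADGRA1 had 4.06, 2.79, 2.71 and 2.11 TPM in the BS kidneys and 0.561, 0.884, 1.11 and 1.36 TPM in the DSE kidneys, without overlap and just under 2-fold on this scale (0.98 ± 0.15, SE, limma, adjusted p = 4.1e-06). ADGRA2 was higher in BS hearts, with 11.8, 15.1, 15.7 and 13.6 TPM in BS and 7.80, 8.53, 7.74 and 8.20 TPM in DSE, without overlap (0.73 ± 0.19, adjusted p = 0.0043). ADGRE5 was higher in BS livers (24.5, 18.2, 17.1 and 16.03 TPM in BS and 14.0, 14.0, 12.8 and 12.2 TPM in DSE; 0.47 ± 0.14, adjusted p = 0.0071, and 0.052 without BS1). In lung, ADGRE5 was -0.36 ± 0.14 (adjusted p = 0.026) and ADGRA2 was 0.49 ± 0.19 (0.032), with 32.5, 36.6, 20.2 and 33.2 TPM in BS and 29.5, 16.1, 22.3 and 18.4 TPM in DSE, and both overlapped. ADGRA3 had 15.3, 14.7, 13.6 and 18.7 TPM in the BS lungs and 26.8, 21.4, 23.7 and 21.4 TPM in the DSE lungs, without overlap (-0.56 ± 0.23, adjusted p = 0.038).

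None of the 3 lung differences held throughout. ADGRE5 and ADGRA3 did not pass with median-ratio scaling (-0.10 and -0.30, adjusted p = 0.58 and 0.24), nor ADGRA2 without the DSE2 lung (0.37, adjusted p = 0.13). Each of the 3 was lost on leaving out any of 5 or 6 of the 8 animals (highest adjusted p 0.16).

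Averaged over organs, 9 members differed with no minimum fold and none at 2-fold (limma on animal means; 1.38% of all genes at 2-fold). BS was higher for ADGRG1, ADGRB1 (0.56 ± 0.10), ADGRA2 (0.31 ± 0.08) and ADGRA1 (0.22 ± 0.08), and lower for ADGRG7 (-0.77 ± 0.14), ADGRL4, ADGRV1 (-0.50 ± 0.13), ADGRE3 (-0.49 ± 0.10) and ADGRG6 (-0.36 ± 0.11). This is 4 higher and 5 lower of 20, while 25.2% of all genes were higher and 30.1% lower by the same rule. ADGRA1 no longer passed without any of 5 animals (highest adjusted p 0.099). The kidney differences of ADGRG1, ADGRB1, ADGRL4, ADGRV1 and ADGRG6 enter these means. Within kidney they did not pass without the BS1 and BS2 kidneys. Full-length reads of ADGRG6 were higher in BS in heart, liver, lung and spleen, the opposite of its mean difference in TPM. Per 1000000 reads, the BS lung had 259 and the DSE lung 115. They were lower in BS in kidney (13.1 in BS and 17.8 in DSE). With 1 library per pig group and organ, this was not tested. The difference between BS and DSE varied between organs for 4 members, against 8.40% of all genes: ADGRG7 (interaction F test, adjusted p = 9.8e-05), ADGRA1 (0.0043), ADGRE5 (0.017) and ADGRF1 (0.020). Those of ADGRE5 and ADGRF1 were each lost without any of 4 animals (highest adjusted p 0.10 and 0.072), and that of ADGRA1 without the BS1 and BS2 kidneys (0.061).

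Between BS and DSE, 10 of 140 comparisons of transcript usage were called on 5 members, against 4.68% over all genes. ADGRL2 transcript PB.9261.17, which covers the last 2.13% of the gene's span, took 47.9, 71.6, 63.5 and 21.9% of the gene's TPM in the BS lungs and 0, 1.01, 0 and 0% in the DSE lungs (adjusted p = 2.1e-06), and was called in kidney (40.7 ± 21.9% in BS and 5.80 ± 11.6% in DSE) and heart (30.6 ± 11.5% in BS and 0 in DSE; SD, n = 4). ADGRD1 transcript ENSSSCT00000075566, on the last 33.1% of its gene, took 58.3, 73.8, 51.5 and 16.9% in the BS lungs and 0, 5.26, 1.13 and 1.72% in the DSE lungs (adjusted p = 6.2e-04). ADGRG6 transcript PB.183.14 took 52.9, 75.2, 65.1 and 30.2% in the BS lungs and 15.8, 21.5, 21.6 and 21.4% in the DSE lungs (adjusted p = 0.0022). In each of the 3 the BS4 lung was nearest to the DSE lungs.

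Over all genes the same libraries leaned to transcripts that cover less than 50% of the gene's span at its 3′ end. The mean usage of such transcripts was 31.6, 36.9, 33.2 and 26.3% in the BS lungs and 25.9 to 26.4% in the DSE lungs. In the kidneys it was 36.5, 31.8, 26.7 and 27.3% in BS and 25.9 to 28.9% in DSE, so that BS1 and BS2 again stood apart. In lung 16.7% of 1380 such transcripts were used at least 20 points more in BS and 2.46% at least 20 points less, while for other transcripts the shares were 4.27% and 4.85%. The part of this lean in the shifts of ADGRL2, ADGRD1 and ADGRG6 was not tested. PB.9261.17 and PB.183.14 had 2 full-length reads each over the 10 libraries.

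The ADGRF5 shift concerned a transcript that is not among these 3′ ones and had 2 full-length reads, 1 in BS lung and 1 in DSE heart. PB.10114.20, of ADGRF5, took 0.491, 0.511, 0.683 and 0.491% in the BS hearts and 23.2, 24.3, 15.7 and 19.2% in the DSE hearts (adjusted p = 7.0e-06), 0 to 2.88% in the BS livers and 22.0 to 38.5% in the DSE livers (7.7e-04), and 0 to 2.49% in the BS spleens and 16.7 to 26.3% in the DSE spleens (9.0e-04). No BS library overlapped a DSE library in these 3 organs, nor in lung, where BS had 0 to 3.95% and DSE 12.995 to 22.9%. The gene's total level did not pass between the pig groups in any organ. In heart and spleen the shift was near the limit of 20 points, at -20.1 and -20.9, and fell below it without DSE1 or DSE2 in heart and without DSE2 or DSE3 in spleen. ADGRG1 transcript PB.7790.5 took 14.4, 2.23, 24.4 and 16.6% of TPM in the BS hearts and 45.6, 50.2, 37.1 and 26.8% in the DSE hearts (adjusted p = 0.0035). The full-length reads did not show this shift: the transcript had 195 of the gene's 215 reads in the BS heart and 193 of 208 in the DSE heart.

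Genes that work with these receptors were described from lists of partners. Of the 3 CELSR genes, adhesion receptors with another symbol that act in planar cell polarity, CELSR1 averaged 16.3 ± 3.49 TPM in kidney and 13.9 ± 1.94 TPM in lung, and CELSR2 6.25 ± 1.68 TPM in lung and 4.53 ± 1.20 TPM in kidney (SD, n = 8). Neither was enriched in an organ or called between the pig groups. Of 26 ligands and extracellular partners, 22 were measured, 3 were enriched in an organ and 2 depleted, beside 11.7% of all genes called in either direction. SFTPD, a surfactant protein that binds ADGRF5, averaged 231 TPM in lung (log2 6.33 over the next organ), FLRT3, a latrophilin ligand, 18.5 TPM in lung (2.29), and LAMA2, a laminin chain, 6.03 TPM in heart (2.71). COL4A1, a basement membrane collagen, was lowest in liver (18.1 TPM, -2.82), and so was PLXDC2, a partner of ADGRD1 (2.73 TPM, -2.20).

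Between BS and DSE, 4 of 70 comparisons of ligands were called higher in BS and 2 lower, where 5.31% of comparisons over all genes were called in either direction. CD81, a tetraspanin that forms complexes with ADGRG1, averaged 309.8 TPM in BS hearts and 152 TPM in DSE hearts (1.02, limma, adjusted p = 6.1e-08). It was higher in BS in the other 4 organs too, by 0.60 to 0.91 (highest adjusted p 2.3e-04), lung included. WNT7B, a ligand that ADGRA2 helps to receive, averaged 11.8 TPM in BS kidneys and 0.995 TPM in DSE kidneys (1.95, adjusted p = 1.7e-04), but 2.89 TPM in BS without the BS1 and BS2 kidneys (0.72, adjusted p = 0.028). FLRT3 averaged 1.06 TPM in BS kidneys and 3.38 TPM in DSE kidneys (-1.07, 0.0071), a call that was lost without those 2 kidneys (-1.05, adjusted p = 0.060). PLXDC2 averaged 33.8 TPM in BS lungs and 68.2 TPM in DSE lungs (-1.01, 0.0068). The other 2 calls were C1QL4 in kidney and C1QL2 in lung, both higher in BS. Of 13 G protein alpha subunits, 10 were measured, and GNAQ was lower in BS lungs (25.2 TPM in BS and 56.0 TPM in DSE, -1.23, adjusted p = 8.3e-04), while GNA14 was depleted in heart (-2.18) and GNAI1 in liver (-2.53). Of 12 intracellular partners, 9 were measured, none was called by organ, and DLG1, a scaffold protein, was lower in BS lungs (25.9 TPM in BS and 58.9 TPM in DSE, -1.20, adjusted p = 8.5e-07).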

How the data were processed

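Short-read levels were deposited by the authors as TPM per gene and per transcript. The submitters' processing notes name STAR 2.7.10a, Salmon 1.10.1 and the build susScr11, and per the file header the annotation was written with rtracklayer 1.58.0. Whether reads were counted by strand is not stated. Full-length reads were deposited as raw counts per transcript, and the authors' steps before that table are not given in the sources used here. For each gene, the full-length counts were summed here over its transcripts: 87.7% of reads could be given to a gene. Left out were columns that match no sample used here: 20 in the gene table, 20 in the transcript table and 5 in the full-length table.

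All fits ran over the whole tables in R 4.3.3. TPM was tested with limma 3.58.1 (limma-trend) on log2(TPM + 1), with organ and pig group in 1 fit over 40 libraries. Benjamini-Hochberg adjustment ran over all 16905 genes, except for BS against DSE within an organ. There it ran over the genes with a mean of 1 TPM or more in either group of that organ (12147 in liver to 15025 in lung). Interactions used an F test and differences over organs the animals' means. Transcript usage was tested with limma on log2 ratios with a pseudocount of 0.5 TPM, for transcripts at 5% or more of a gene. Full-length counts were tested with edgeR 4.0.16, with TMM scaling and a term for pig group, and DESeq2 1.42.0 was an alternative. The scripts recovered known changes in simulated data. TPM keeps no depth, so no counting interval was given. In the limma fit over 40 libraries each gene had 1 spread between animals, pooled over organs and pig groups. Its SE for BS against DSE was thus the same in every organ, also where animals varied more. ADGRV1 in kidney is a case, with an SD of 15.6 TPM in BS and 3.76 TPM in DSE. The p-values of the full-length reads rest on 1 library per pig group and organ and do not cover the spread between animals.

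Titles give each library a pig group, an animal number and an organ. Libraries of 1 animal were taken as paired across organs: deviations from the group means correlated by -0.11 to 0.45, with 47 of 80 pairs above 0.1. The same number in BS and DSE did not pair animals (-0.23 to 0.074, none of 20 above 0.1). The highest correlation between any 2 libraries was 0.989, so none was a copy of another. All 25 members are accounted for; those with a mean of 1 TPM or more in some organ are described with every organ's level, members that passed between pig groups with every animal's value, transcripts by the largest shift of a gene, and partner lists by counts and up to 4 genes. The members and all lists were chosen with earlier results of these data known.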

Additional observations from a re-analysis of the deposited data

Results flagged for a closer look

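Of 129 sets of 4 animals with a member at a measurable level, 8 held 1 animal far from the other 3, and chance gives about 1 in 20. ADGRF1 was 6.72 TPM in the DSE2 lung, against at most 0.880 TPM in the other DSE lungs. ADGRG7 was 16.9 TPM in the DSE1 kidney, against at most 6.69 TPM. ADGRG6 was 34.4 TPM in the BS3 liver, against at most 14.0 TPM. ADGRG3 was 4.24 TPM in the BS1 lung, against at most 1.94 TPM. ADGRD1 was 1.35 TPM in the DSE1 spleen, against at least 4.49 TPM. ADGRV1 was 0.601 TPM in the BS2 lung, against at least 1.48 TPM. ADGRL1 was 4.25 TPM in the BS2 lung, against at least 5.27 TPM, and 7.08 TPM in the BS2 spleen, against at most 5.03 TPM.

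The difference between BS and DSE varied between organs by the interaction test in limma for 4 members: ADGRG7 (adjusted p = 9.8e-05), ADGRA1 (0.0043), ADGRE5 (0.017) and ADGRF1 (0.020). ADGRG7 was lower in BS in kidney and liver, ADGRA1 higher in BS in kidney, ADGRE5 higher in BS livers and lower in BS lungs, and ADGRF1 lower in BS lungs and higher in BS spleens.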

How the results depend on the processing

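Counts of members called kept within 1.5 times under most settings. A pseudocount of 0.1 TPM gave 12 calls between BS and DSE within organs in place of 7, and 1 in place of 0 over organs. Median-ratio scaling left 2 interactions in place of 4, and a mean of 1 TPM for usage gave 41 organ calls in place of 15. In full-length reads, DESeq2 called 1 member in place of 3 (ADGRG1 in heart, not among the 3), and edgeR with no replicate block (no pig group term) 1 (ADGRF1 in kidney, among them). Leaving out 1 animal gave 4 organ calls throughout, 46 to 49 neighbour steps, 6 to 9 calls within organs, 0 over organs, 2 to 6 interactions (2 without DSE3, 6 without BS3), and 12 to 18 and 8 to 14 usage calls; of 693 single values, 85 no longer passed and 0 changed sign. The replicate block (the animal between organs, the number between BS and DSE, which did not pair them) gave 4, 48, 7, 0, 4, 15 and 10 calls. Adjusted p with it was 0.068 for ADGRA2 and 0.057 for ADGRA3 in lung, 0.062 for ADGRB1 in kidney and 0.095 for ADGRA1 over organs, and no other call changed. Median-ratio scaling turned the sign of the lung excess of ADGRA2 (-0.11), ADGRD1 (-0.80), ADGRF5 (-0.45), ADGRG1 (-0.69) and ADGRG6 (-0.19) and of the liver deficit of ADGRE5 (0.023), ADGRF5 (0.57) and ADGRL4 (0.63). Without the mitochondrial genome ADGRD1 in lung was -0.098. Without the BS1 and BS2 kidneys, chosen after seeing the data like the other single-library settings, ADGRL3 in kidney was 0.080. The cause was not tested. Depth limits the full-length reads, in which several members had under 10 reads in an organ.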
